A study of Mus musculus with 8 samples.

Results

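Isolated peaks are open chromatin sites that stand alone: autosomal peaks with no other deposited peak whose midpoint lies within 100000 bases of their own. Of 123493 autosomal peaks 918 met this rule, or 0.743%, and the other 122575 had at least 1 neighbour at that distance. The rule used positions only. The peaks come from bulk ATAC-seq, in which a transposase cuts and tags accessible DNA, so that the number of reads over a site follows how open it is. The cells were hematopoietic stem cells (HSCs), the marrow cells that renew the blood, sorted from C57BL/6 mice as lineage-negative, Sca-1+, Kit+ cells with the surface phenotype CD150+ CD48-. Libraries were made from 4 old and 4 young samples by the Omni-ATAC version of the assay. The labels give neither the ages nor the sex of the mice, nor whether animals were pooled or each library came from its own mouse. The spread that p-values rest on is therefore the spread of these libraries, part of which may be technical, and age cannot be told apart from other ways in which the groups may differ. Values are given as mean ± SD over the 4 libraries of a group (n = 4 each), and fold changes are old over young. The table names no genes and no mm9 annotation or sequence was used, so the sorted cell type was not checked against marker genes, and what lies at or near the peaks was not analysed here.

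Open sites in mammalian genomes crowd around genes and their enhancers, in gene-dense stretches where neighbouring sites are often close together. Long stretches with few genes are more often packed as heterochromatin, the compact and mostly silent form of chromatin. An open site that stands alone in such a stretch can be a distant enhancer, a site bound by an architectural protein such as CTCF, or part of a repeat element.

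Total counts ran from 4200905 to 5129684 per library and overlapped between the groups. Old replicate 4 lay nearer to the young libraries than the other old libraries did in several values below, and results are given with and without it where it moved them. Levels are in CPM, counts scaled to a common library size after TMM normalization. Counting error is large at most isolated peaks: the median isolated peak had a mean of 5 counts per library, against 12.5 at peaks with a neighbour.

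Isolated peaks were narrower and weaker than peaks with a neighbour. Their median width was 295 bases (quartiles 231 and 427), against 411 bases (282 and 690). At the smallest width in the table, 200 bases, lay 7.52% of isolated and 3.61% of neighboured peaks. The median level over the 8 libraries was 1.14 CPM (quartiles 0.737 and 2.26) at isolated peaks and 2.81 CPM (1.21 and 7.96) at the others. Per 1000 bases of peak the median levels were 3.61 and 6.55 CPM. Both distributions overlap widely, and peaks are not replicates, so these are descriptions without a test.

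**Figure D1:**
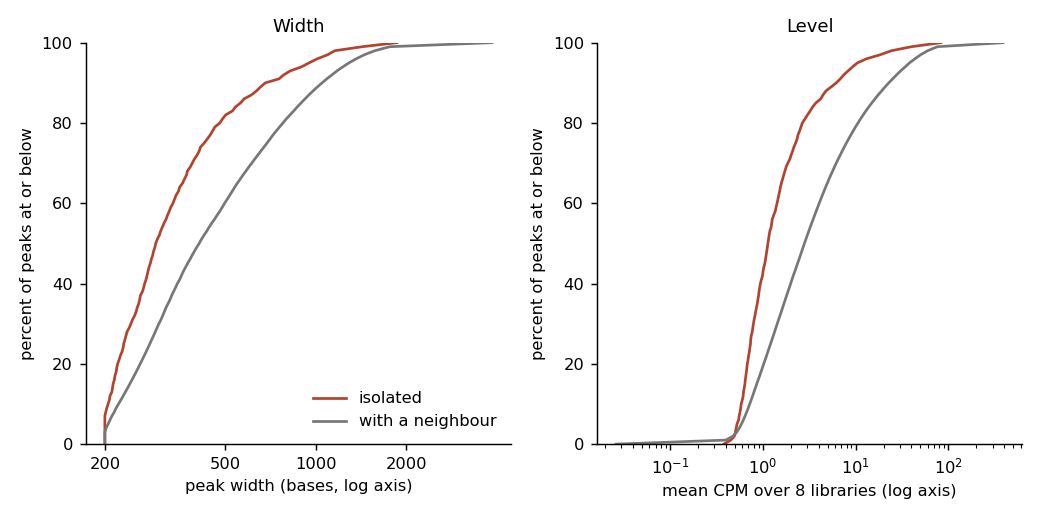
Cumulative share of peaks (vertical axis, percent) by peak width in bases (left, log axis) and by mean CPM over the 8 libraries (right, log axis), for isolated peaks and for autosomal peaks with a neighbour. The curve of isolated peaks lies to the left in both panels, with medians of 295 against 411 bases and 1.14 against 2.81 CPM.

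The peak-free surroundings of isolated peaks were much longer than the rule required. The median distance to the nearest other peak was 158571 bases (quartiles 120162 and 238354), and 324 isolated peaks had none within 200000 bases. From the peak before to the peak after, the median span was 501228 bases. Isolated peaks often followed each other: 490 of them sat in 186 runs of 2 or more consecutive isolated peaks, and 428 stood singly. The longest runs held 7 peaks each, at chr1:141622379-143881632 and chr7:10668360-12385583 (mm9 throughout). In the run on chromosome 1 the old mean was above the young mean at 6 of 7 peaks, and in the run on chromosome 7 at 2 of 7.

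Every autosome held isolated peaks, most on chromosome 1 (87 of 8431 peaks, 1.03%) and fewest on chromosome 19 (11 of 3737, 0.294%). The rule itself leaves fewer isolated peaks where peaks are dense: chromosome 11 had 71.2 peaks per Mb and 2.86 isolated peaks per 10 Mb, and chromosome 1 had 43.4 and 4.48. The summed CPM of isolated peaks was higher in old than in young HSCs on each of the 19 autosomes, by ratios from 1.15 on chromosome 18 to 2.27 on chromosome 11. Ratios for single chromosomes rest on few peaks, 34 on chromosome 11.

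Isolated peaks took a larger share of the reads in old than in young HSCs. The share was 0.315%, 0.327%, 0.336% and 0.280% of autosomal counts in old replicates 1 to 4 and 0.217%, 0.242%, 0.233% and 0.227% in young replicates 1 to 4. All old libraries lay above all young ones, and old replicate 4 was the lowest old library. The means were 0.314 ± 0.0247% in old and 0.230 ± 0.0102% in young libraries, a ratio of 1.37, or 1.42 without old replicate 4. These shares count every isolated peak, however weak. In a bulk sample, more cells with an open site and a more open site in each cell cannot be told apart. No p is given, because the class was chosen with earlier results of these data known.

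Many isolated peaks that were empty in young libraries held reads in old ones. Young replicates 1 to 4 had 0 counts at 105, 76, 109 and 114 of the 918 isolated peaks, and old replicates 1 to 4 at 34, 18, 33 and 20. The groups did not overlap, with means of 11 ± 1.9% empty in young and 2.86 ± 0.917% in old libraries. At peaks with a neighbour the share went the other way and the groups overlapped, at 2.02 ± 0.378% in young and 2.54 ± 0.861% in old. All 4 young libraries were at 0 at 19 isolated and 105 neighboured peaks. All 4 old libraries were at 0 at 0 isolated and 35 neighboured peaks, so peaks empty in every library of a group were more often empty in young ones in both classes.

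**Figure D2:**
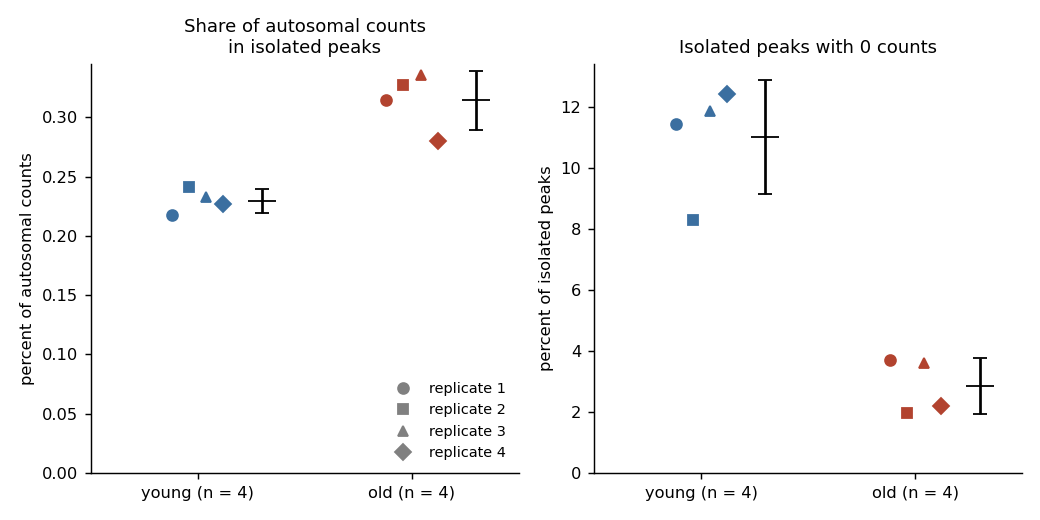
Share of autosomal counts that fell in isolated peaks (left, percent) and share of the 918 isolated peaks with 0 counts (right, percent) in each of 4 young and 4 old libraries. Symbols mark replicates and bars the mean and SD; old libraries sit between 0.280% and 0.336% on the left, all above the young libraries.

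The difference was also seen at the typical isolated peak. The median CPM over isolated peaks was 1.53, 1.47, 1.61 and 1.24 in old replicates 1 to 4, and 0.933, 1.05, 1.0 and 0.862 in young replicates 1 to 4, without overlap. Over neighboured peaks it ranged from 2.55 to 2.77 in old and from 2.74 to 2.80 in young libraries, with overlap. The old mean was above the young mean at 634 of 918 isolated peaks (69.1%) and at 47.2% of neighboured peaks. Without the 10 strongest isolated peaks the share of autosomal counts was 0.257 ± 0.0186% in old and 0.182 ± 0.00758% in young libraries, a ratio of 1.41. Among the 392 isolated peaks with a mean below 1 CPM the ratio was 1.37, and among the 526 others it was also 1.37.

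Single isolated peaks were tested in a fit over the whole table (edgeR's quasi-likelihood test, with calls at a Benjamini-Hochberg adjusted p below 0.05). Without a count filter all 918 were tested, and 212 were higher (23.1%) and 22 lower (2.40%) in old HSCs. Of all 126871 peaks in that fit 8.46% were higher and 7.69% lower. With the usual count filter (edgeR filterByExpr, minimum count 10) 247 of the 918 were tested, of which 83 were higher (33.6%) and 10 lower (4.05%), where 10% and 10.4% of all 73164 tested peaks were. Of the 247 peaks 102 reached the minimum in all libraries, and 45 passed with neither group complete. Another 82 passed because the 4 old libraries reached the minimum while not all young ones did, and 18 passed through the young libraries. The count of calls by itself therefore shows no direction. A filter that ignores the groups, a mean of at least 10 counts, left 233, with 74 higher and 9 lower, against 9.82% and 10.7% of all peaks tested. The 83 and 10 peaks were all among those called without a filter.

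Read peak by peak, 209 isolated peaks (22.8%) had all old libraries above all young ones and 36 (3.92%) had them below. Of all deposited peaks 8.28% and 9.93% did. Without old replicate 4, 122 isolated peaks were higher and 16 lower of 269 tested, where 14.5% and 15.5% of all tested peaks were.

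The 83 isolated peaks called higher had a median log2 fold change of 1.81, and the 10 called lower had -1.17. Over tested neighboured peaks called in each direction these medians were 0.88 and -0.98. Changes over 4-fold, that is past 2 on the log2 scale, were fitted at 35 of the 83 and at 2 of the 10. Isolated peaks had fewer counts, and at low counts only larger changes reach a call. Of the 247 tested, 82 also passed the filter through the old libraries. The sizes of called changes therefore cannot be compared between isolated and neighboured peaks. Among the 83, 23 had a young mean under 1 CPM, 44 between 1 and 5 CPM and 16 at 5 CPM or more. The level of background reads was not measured, so a weakly open site cannot be told from a closed one by these levels. Old replicate 4 lay above all young libraries at 78 of the 83 and below them at all 10 of the others. Leaving out each library in turn, 59 of the 83 and 6 of the 10 stayed called every time.

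Part of the difference lay outside the peaks called with the count filter. All isolated peaks together held 3297 ± 275 CPM in old and 2376 ± 105 in young libraries, a difference of 921 CPM. The 83 peaks called higher made up 60.4% of that difference, the 154 tested and not called 17.2%, and the 671 not tested 28.3%, and the 10 called lower -5.92%. The sets were made from the same contrast, so these are shares of a sum and no test. Without the count filter 212 isolated peaks were called higher and 22 lower. The further calls made there fell among the 154 and the 671 peaks, which are therefore not all without a call. The 671 untested peaks held 0.0767 ± 0.00656% of autosomal counts in old and 0.0526 ± 0.00220% in young libraries, without overlap. The 154 tested and not called held 0.145 ± 0.00819% and 0.132 ± 0.00523%, a ratio of 1.10, and there the groups overlapped.

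The difference between old and young HSCs grew with the distance to the nearest other peak, from 5000 up to 500000 bases. Old over young, the summed CPM was 1.02 at up to 1000 bases, 0.999 from there to 5000, 1.01 to 20000, 1.06 to 50000 and 1.22 to 100000 bases. Within the isolated class the ratio was 1.32 at 100000 to 200000 bases (594 peaks), 1.54 at 200000 to 500000 (278 peaks) and 1.57 beyond (46 peaks). In each of these 3 isolated classes the old libraries lay above the young ones. Beyond 500000 bases the sums were 249 ± 44.4 CPM in old and 159 ± 21.7 in young libraries, a spread too wide to set that class apart from the one before. The peak at chr1:104524592-104525000, which was not called, alone held 105 of the old and 61.0 of the young CPM there. The old mean was above the young mean at 68.5%, 71.9% and 58.7% of peaks in these 3 classes. Old replicate 4 was the lowest old library in all 3, at 1.19, 1.35 and 1.19 of the young mean. Without it the ratios were 1.37, 1.60 and 1.70.

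Beyond 5000 bases losses mostly grew scarcer with distance. In the fit without a count filter 5.31% of peaks within 1000 bases of another were lower in old HSCs, 8.92% at 1000 to 5000, 8.47% at 5000 to 20000, 6.18% at 20000 to 50000 and 4.51% at 50000 to 100000. Within the isolated class the shares were 3.03% at 100000 to 200000, 1.08% at 200000 to 500000 and 2.17% beyond, which is 1 of 46 peaks. The median level also fell with distance, from 2.80 CPM at 5000 to 20000 bases to 1.17, 1.11 and 0.899 CPM in the isolated classes. At low counts only larger changes reach a call, and the part of level in the falling loss shares was not tested. Peaks called higher made up 6.92%, 8.30%, 8.54%, 11.9% and 20.2% of the neighboured classes and 23.9%, 21.6% and 21.7% of the isolated ones. With the count filter, 0 of 79 tested peaks beyond 200000 bases were lower by edgeR and 29 were higher, where 10.4% and 10% of all tested peaks were. None (0) of the 79 was lower at an unadjusted p below 0.05, and DESeq2 also called 0. Over all isolated peaks this filter passed 82 through the old and 18 through the young libraries, so the 0 does not show that losses are absent. Without the filter edgeR called 4 of the 324 lower and 70 higher, and 11 and 96 were so at an unadjusted p below 0.05.

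**Figure D3:**
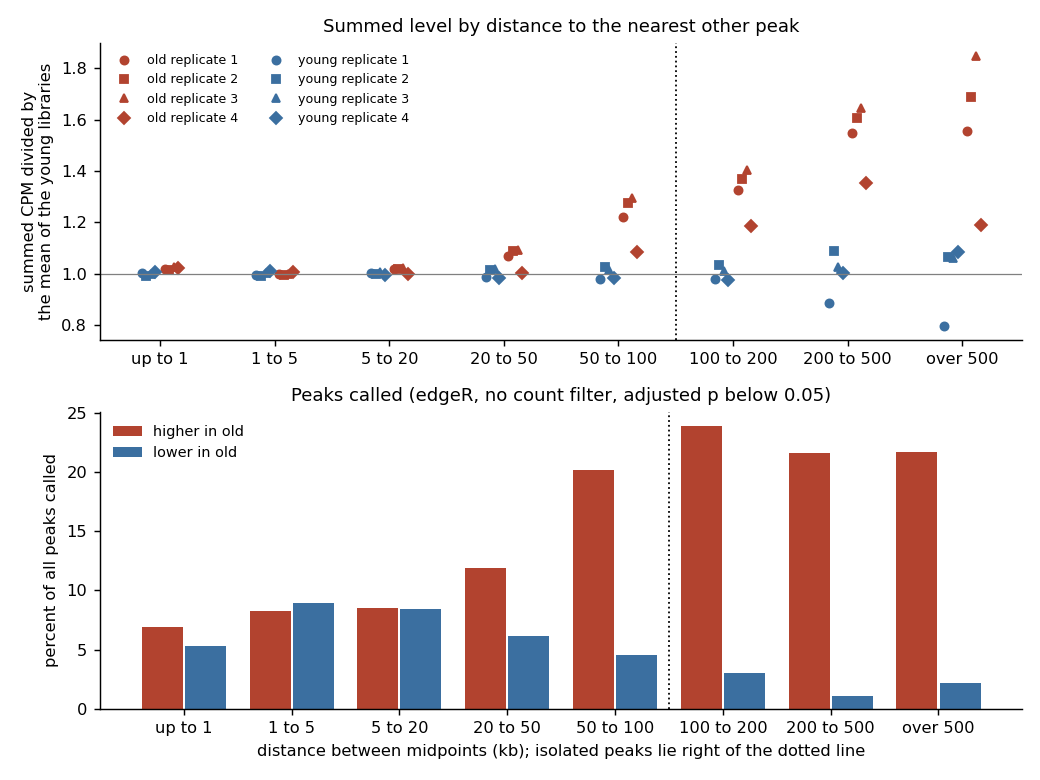
Top, summed CPM of each library divided by the mean of the young libraries, by class of distance to the nearest other peak (kb). Bottom, percent of all peaks in each class called higher or lower in old HSCs by edgeR without a count filter; isolated peaks lie right of the dotted line, where old libraries range from 1.19 to 1.85 of the young mean.

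The classes of distance on each side of the limit, 50000 to 100000 and 100000 to 200000 bases, had ratios of 1.22 and 1.32. The 3 peaks nearest to it on each side are examples, too few and too weak to show whether there is a step. Just inside it, the peak at chr17:83078286-83078569 (nearest peak at 100186 bases) had 1.89 ± 0.265 CPM in old and 1.68 ± 0.914 in young libraries. The next, chr18:88219980-88220426, had 3.24 ± 0.670 and 3.24 ± 2.68 CPM, and the third, chr11:26963220-26963419, had 0.579 ± 0.404 and 0.914 ± 0.222 CPM. Just outside, the peak at chr1:188855758-188856214 (nearest at 99978 bases) had 1.52 ± 0.195 and 1.44 ± 0.747 CPM, and the one at chr5:131434020-131434221 had 1.87 ± 0.736 and 1.88 ± 0.580 CPM. The third outside, chr16:74132197-74132511, had 0.552 ± 0.493 and 1.17 ± 0.941 CPM. All 6 are weak peaks at which the groups overlapped.

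Peak strength moved with isolation, so isolated peaks were set beside peaks of like strength. In quintiles of mean CPM over all autosomal peaks, from weakest to strongest, the summed CPM of isolated peaks in old over young libraries was 1.39, 1.65, 1.43, 1.43 and 1.29. At peaks with a neighbour the same ratios were 0.875, 0.920, 0.958, 0.981 and 1.03. Weak peaks with a neighbour were thus lower in old HSCs where isolated peaks of that strength were higher. In every quintile all old libraries lay above all young ones at isolated peaks, old replicate 4 included. Its ratios there were 1.27, 1.44, 1.26, 1.25 and 1.14.

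The share of single peaks called higher was larger at isolated peaks in each quintile. Without a count filter it was 15.6%, 26.2%, 27.6%, 33.0% and 39.1% from weakest to strongest, and 3.53%, 5.58%, 7.56%, 10.04% and 15.4% at peaks with a neighbour. The shares called lower were 1.54% to 5.68% at isolated and 4.09% to 10.4% at neighboured peaks. Depth rose with strength, from a median of 3.13 counts per library at isolated peaks in the weakest quintile to 96 in the strongest, and its part in the rising shares was not tested.

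**Figure D4:**
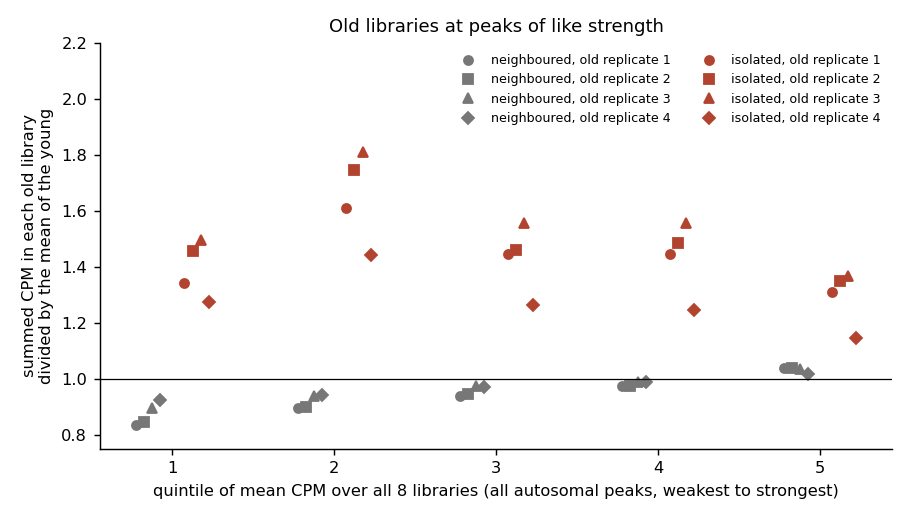
Summed CPM in each old library divided by the mean of the young libraries (vertical axis), for isolated and neighboured autosomal peaks in 5 quintiles of mean CPM (horizontal axis, weakest to strongest). Every point of the isolated class lies above 1, between 1.14 and 1.81, and neighboured peaks run from 0.835 to 1.04.

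Wide isolated peaks were called higher most often. In the widest quintile of autosomal peaks, 777 bases or more, 41 of 76 isolated peaks were higher and 2 lower without a count filter, which is 53.9% and 2.63%. Peaks of that width with a neighbour were higher at 15.6% and lower at 7.35%. In the narrowest quintile, under 262 bases, 43 of 333 isolated peaks were higher and 8 lower, against 3.41% and 4.42% of neighboured peaks. Wide peaks are also the deeper ones, with median levels at isolated peaks of 9.04 CPM in the widest and 0.687 CPM in the narrowest quintile. In the strongest quintile of mean CPM, at a median of 21.6 CPM, 39.1% of isolated peaks were higher. The parts of width and depth were not tested.

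Replicates of weak isolated peaks agreed better in old than in young libraries. In the weakest quintile the median coefficient of variation was 0.542 in old and 0.669 in young libraries at isolated peaks, and 0.610 and 0.561 at neighboured ones. In the strongest it was 0.106 and 0.130 at isolated peaks and 0.109 and 0.107 at neighboured ones. At isolated peaks the old libraries had the lower value in all 5 quintiles, and they also had more counts there.

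The 10 leading gains are the isolated peaks with the smallest p among those at which every old library lay above every young one. Chosen by p and by the lack of overlap, their values describe the change and are no further test of the class. The peak at chr12:47919316-47921076, 1761 bases wide, had 54.2, 47.1, 47.1 and 39.3 CPM in old replicates 1 to 4 and 11.9, 10.3, 11 and 10.6 in young replicates 1 to 4. Its nearest neighbour lay 136452 bases to one side, and on the other side no peak followed for 1430188.5 bases. The groups lay far apart, with a fitted change of 2.10 on the log2 scale and an SE of 0.12 (edgeR adjusted p = 9.27e-10).

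Second came the peak at chr11:65981256-65982269, with 19.6, 19.4, 22.1 and 19.2 CPM in old and 1.63, 0.631, 2.0 and 1.51 in young libraries. The old libraries were close together, and old replicate 4 was at the level of the others. The fitted change was 3.80 on the log2 scale with an SE of 0.24 (edgeR adjusted p = 2.83e-09).

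The third and ninth peaks were close to empty in young cells. At chr6:76578491-76579126 the old libraries had 8.15, 7.78, 9.92 and 9.51 CPM, from 158 counts in all, and the young libraries held 1 count together. The ratio of the pooled levels was 156 (95% exact binomial interval 27.7 to 6219, for counting error only; edgeR adjusted p = 3.76e-08). The ninth, at chr6:44799270-44799799, had 5.35, 4.63, 5.77 and 4.13 CPM in old libraries from 88 counts, against 2 counts in the young ones. Its ratio was 43.6 (95% interval 11.7 to 365; edgeR adjusted p = 2.20e-06). At both peaks old replicate 4 was at or just below the level of the other old libraries.

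The fourth peak lay at chr5:27230421-27231574, with 11.5, 15.6, 14.5 and 9.10 CPM in old and 0.466, 0, 0.50 and 0.431 in young libraries. Its log2 fold change of 5.11 with an SE of 0.39 rests on 226 and 6 counts (edgeR adjusted p = 4.51e-08). A pair of peaks on chromosome 8 followed. The one at chr8:105191031-105191543 rose from 2.96 ± 1.58 to 19.7 ± 2.05 CPM and the one at chr8:30329533-30330539 from 2.19 ± 0.309 to 13.7 ± 3.10 CPM. In the latter, old replicate 4 had 9.10 CPM where the other old libraries had 14.8 to 15.6.

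The seventh peak was the most remote of the 10, with its nearest neighbour 519780 bases away. At chr1:142141888-142142741, it had 11.7, 7.36, 8.07 and 5.995 CPM in old and 0.466, 0.421, 1.0 and 0.431 in young libraries. It belongs to the 7-peak run on chromosome 1 and was the 1 peak of that run called higher. The eighth and the tenth were wide, at 1620 and 1223 bases. At chr5:9724706-9726325 the level rose from 2.19 ± 0.657 to 11.9 ± 1.32 CPM, and at chr9:29219119-29220341 from 1.13 ± 0.130 to 7.11 ± 1.75 CPM. All 10 stayed called with each library left out in turn, where the largest edgeR adjusted p per peak ran from 4.49e-08 to 1.10e-04.

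At some isolated peaks no read at all was counted in young cells. The peak at chr10:27583236-27583742 had 70 counts in old libraries, at 3.82, 5.68, 5.07 and 1.24 CPM, and 0 in the young ones. Against a floor of 3 counts over the young group it was at least 23.1-fold higher. The peak at chr5:70754994-70755465 had 3.06, 2.73, 3.0 and 3.72 CPM in old libraries and was at least 18.5-fold higher, and the one at chr1:116678501-116678907 at least 17.5-fold. Old replicate 4 was the lowest old library at the first and the last, and the highest at the second. The first and last were too weak there for the count filter, and without it their edgeR adjusted p were 2.90e-05 and 2.44e-05. These 3 were picked for their empty young libraries.

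The 10 isolated peaks called lower fell by 0.71 to 2.24 on the log2 scale. The largest by p, chr4:20516285-20516946, had 3.31, 1.05, 3.0 and 3.10 CPM in old and 9.79, 9.26, 16.3 and 11.2 in young libraries. It kept 46 counts in the old libraries, and the fitted change was -2.15 on the log2 scale with an SE of 0.28 (edgeR adjusted p = 3.21e-05). At chr18:3666119-3667288 the level fell from 28.0 ± 2.95 to 16.5 ± 1.69 CPM, and at chr3:139893582-139894342 from 14.0 ± 2.62 to 5.76 ± 2.45 CPM. The steepest of the 10, chr1:195670663-195671004, fell from 3.52 ± 1.24 to 0.718 ± 0.235 CPM, from 63 counts to 13. The lack of overlap between the groups at these peaks was part of how they were chosen.

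The other 6 isolated peaks called lower fell by 0.71 to 1.56 on the log2 scale. At chr15:69679991-69680474 the level fell from 4.17 ± 0.966 to 1.39 ± 0.257 CPM, and at chr2:56157309-56157975 from 11.1 ± 2.67 to 5.41 ± 1.05 CPM. The remaining 4 lost their call with 1 library or another left out, and the DESeq2 test on all libraries did not call the second and the last of them (adjusted p = 0.0502 and 0.0534). They were a pair at chr17:60106701-60107357 and chr17:92610106-92610597, with edgeR adjusted p of 0.0124 and 0.0130, rising to 0.0667 without young replicate 1 and to 0.0520 without old replicate 1. The peak at chr18:15710728-15711645 had 0.0169, rising to 0.0737 without old replicate 2 and 0.0712 without old replicate 3. The peak at chr6:70264477-70265191 had 0.0284, rising to 0.102 without old replicate 3, 0.0795 without young replicate 2 and 0.0581 without young replicate 4. Old replicates 1 and 2 there, at 4.84 and 4.42 CPM, were near the lowest young library at 5.36 CPM.

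**Figure D5:**
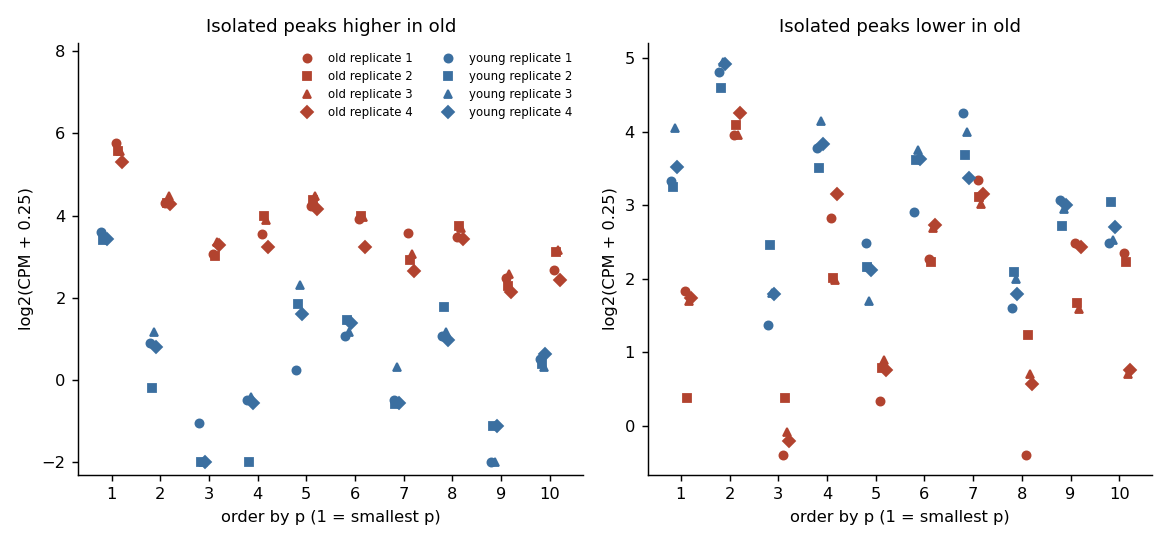
Level of the 10 isolated peaks with the smallest p in each direction, as log2(CPM + 0.25), in each of 4 old and 4 young libraries; numbers on the horizontal axis follow the order of p. They were chosen by p and because the groups do not overlap; the strongest of the gains had 39.3 to 54.2 CPM in old libraries.

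Among strong isolated peaks some held the same level in both groups. The peak at chr9:19426173-19426958 had 79.2, 80.8, 79.6 and 77.1 CPM in old and 79.3, 74.7, 83.5 and 79.3 in young libraries. Of the 100 strongest isolated peaks it had the smallest fitted change, 0.00061 on the log2 scale with an SE of 0.062. The strongest isolated peak of all, chr1:104524592-104525000, had 100.3, 115, 135 and 68.2 CPM in old and 43.4, 65.7, 62.0 and 72.8 in young libraries. Old replicate 4 lay within the young range, and the log2 fold change of 0.77 with an SE of 0.25 did not pass (edgeR adjusted p = 0.0760), while without old replicate 4 it was 0.95 and passed (0.0108). DESeq2's test passed it on all 8 libraries (adjusted p = 0.0252). At 409 bases this peak was narrow for its level, with 203 CPM per 1000 bases where the median isolated peak had 3.61. The third strongest, chr1:113760584-113761851, had 79.1 ± 8.78 CPM in old and 68.3 ± 3.93 in young libraries (edgeR adjusted p = 0.0627). It passed without old replicate 4 (0.00156), without young replicate 2 (0.0452), without a count filter (0.0378) and with the replicate number as a block (0.0343).

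The widest isolated peak, 1859 bases at chr14:11993111-11994969, had 58.4 ± 7.55 CPM in old and 52.1 ± 3.53 in young libraries (edgeR adjusted p = 0.215, and 0.0183 without old replicate 4). The second widest is the peak on chromosome 12 that led the gains. The third, chr14:6239509-6241202, rose from 31.4 ± 8.25 to 49.0 ± 7.60 CPM (edgeR adjusted p = 0.0296), and its call was lost without old replicate 2 (0.0725), old replicate 3 (0.0579), young replicate 2 (0.0593) or young replicate 4 (0.0572).

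The 3 most remote peaks of all were weak, and the groups overlapped at each. At chr3:43884391-43884748, with no peak within 1253349 bases, 18 counts in old and 12 in young libraries gave 1.01 ± 0.423 and 0.660 ± 0.450 CPM. At chr15:14607451-14607680 both groups had 12 counts. At chr5:94945473-94945685 43 and 28 counts gave 2.36 ± 1.14 and 1.56 ± 0.810 CPM (edgeR adjusted p = 0.384).

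The nearest peak across the gap was mostly not called where the isolated peak was, but most tested peaks of any kind were not called. Of all 73164 tested peaks 10% were higher and 10.4% lower. For 29 of the 83 isolated peaks called higher the nearest other peak was itself tested. It was called higher at 7 of them (24.1%), not called at 22 and lower at 0. Among tested peaks 50000 to 100000 or 100000 to 200000 bases from their own nearest peak, 28.9% and 32.1% were higher. How far the 29 nearest peaks lay from others was not taken into account, so 24.1% cannot be set against 10% alone. At peaks called higher that had a neighbour within the limit, the nearest tested peak was called higher at 22.1% and lower at 269 of 4465. For the 10 called lower, 1 nearest peak was tested and was not called.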

How the data were processed

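The authors deposited raw read counts, as integers, for 1 common set of peaks in 8 libraries. The submitters' processing notes name MACS2, Bowtie2, Picard, SAMtools, Trim Galore and FastQC, and build mm9. Peak merging, the counting program and any shift of read ends for the transposase: not given in the sources used here. Peaks called on the compared libraries can favour sites open in either group. Columns were matched to samples by title.

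Members, lists and tests were chosen with earlier results of these data known. Midpoint distances were taken among all 126871 deposited peaks, and widths count both end bases. Counts were tested with edgeR 4.0.16 (filterByExpr, TMM, glmQLFit robust, glmQLFTest; R 4.3.3), group as the only term, over all 73164 tested peaks, which held 94.2% of counts. The SE is the log2 fold change over the root of F. The main fit was also run on counts simulated for peaks that passed the count filter, which does not test the fit without it. Named peaks are the 10 with the smallest p and no overlap in each direction, the 3 strongest, widest, most remote, nearest each side of the limit and highest with an empty group, and the steadiest of the 100 strongest. Deviations from the group mean in same-numbered libraries had r of -0.0140, 0.0736, 0.0495 and 0.179 for numbers 1 to 4. Across different numbers r ran from -0.127 to 0.0788, so the number 4 pair was the highest. Whether the number 4 libraries share a factor was not tested. The labels do not call equal numbers pairs, and the main fit did not use them as such. Alternatives were DESeq2 1.42.0, other scalings, filters and distances, a replicate block and each library left out. Genes, cell type markers and sequences were not analysed here.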

Additional observations from a re-analysis of the deposited data

Results flagged for a closer look

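The 4 values of a group were screened in 74 cases for a library set apart from its group, and 6 cases were found, where chance alone flags about 1 case in 20, or 3.7. Of these, 3 concern old libraries. At chr11:65981256-65982269 old replicate 3 had the highest value, 22.1 CPM, while the remaining old libraries had 19.2 to 19.6. Old replicate 4 had 9.10 CPM at chr8:30329533-30330539, below the 14.8 to 15.6 of the rest of its group. Old replicate 2 had 1.05 CPM at chr4:20516285-20516946, below 3.0 to 3.31. The remaining 3 concern young libraries at peaks near empty in that group. Young replicate 1 had 0.233 CPM, which is 1 count, at chr6:76578491-76579126, where the rest had 0. Young replicate 2 had 0 CPM at chr5:27230421-27231574, below 0.431 to 0.50. Young replicate 3 had 1.0 CPM at chr1:142141888-142142741, above 0.421 to 0.466.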

How the results depend on the processing

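Of 21 alternatives, 17 kept the number of isolated peaks called higher within 1.5 times of 83 and 15 kept the number called lower within 1.5 times of 10, and gains made up 81.5% to 100% of called isolated peaks in all of them. Without a count filter 212 were higher and 22 lower, and at an adjusted p below 0.01 there were 6 lower. With each library left out in turn 64 to 122 were higher and 9 to 16 lower, the highest of both without old replicate 4, and the old share of counts exceeded the young one by 0.0776 to 0.0964 percentage points (0.0848 with all). At a distance of 50000 bases 247 were higher, 56 lower and the excess 0.212 points. At 200000 bases these were 29, 0 and 0.0357, and with distances taken among tested peaks only 358, 70 and 0.231, since each rule picks a different number of peaks. The replicate block gave 89 higher and 11 lower, where 11.1% and 11.8% of all tested peaks were. The peak at chr18:88219980-88220426, just inside the limit, had a log2 fold change of -0.0095 with the count filter and 0.025 without it. Of the 26 other named peaks followed through the alternatives only the steady peak at chr9:19426173-19426958 turned in sign, around 0 and never called. It had -0.0014 with DESeq2 size factors, -0.028 with total count scaling, -0.072 with a loess offset, -0.0076 with a mean count of at least 10, -0.0013 with the DESeq2 test, -0.0043 with autosomes only and -0.030 (without young replicate 2) to 0.025 with each library left out.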
